A study of Mus musculus with 36 samples.

Results

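Alcohol dehydrogenases and aldehyde dehydrogenases were followed through 10 genes of the mouse liver: Adh1, Adh4, Adh5, Aldh2, Aldh1b1, Aldh1l1, Aldh4a1, Aldh6a1, Aldh8a1 and Aldh9a1. They were taken by name from the 53715 gene identifiers of the deposited table by a rule that holds no measured value, although earlier results of these data were known when they were chosen. Of the 10, 9 had enough counts to be tested, and Aldh4a1 had none. Liver RNA was sequenced from 36 male C57BL/6 mice aged 10 weeks, 12 for each of 3 diets that began at 4 weeks of age and lasted 6 weeks. Control mice ate AIN93G, a purified rodent diet. The Red group had red tomato powder, and the Tangerine group tangerine tomato powder, at 10% of the diet. The labels name no genetic change, drug or other treatment in any group.

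Alcohol dehydrogenases oxidise alcohols to aldehydes with NAD+, and aldehyde dehydrogenases oxidise the aldehydes to acids or acyl-CoA. In hepatocytes the best known route takes ethanol to acetaldehyde in the cytosol and acetaldehyde to acetate in mitochondria. Most members have other physiological substrates, such as retinol, formaldehyde bound to glutathione and formyl groups carried by folate. Others are semialdehydes from the breakdown of proline, valine and tryptophan, and an aldehyde of carnitine synthesis. As classes, alcohol and aldehyde dehydrogenases are counted in phase I metabolism, the subject of the series' design text, though several members serve other routes. The comparisons ask whether either tomato powder altered the members' transcripts, and whether the powders differed.

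Total counts per liver ranged from 21290169 to 33810573, with a median of 27002946. Each liver carried its own mouse number and was taken as 1 mouse. The labels do not say so outright, and if some livers shared a source, the p-values measure only the spread between samples. The 5 hepatocyte markers summed to 76104 to 115946 CPM (counts set against the library's scaled total) over all livers. Red liver 186 had the highest sums of T cell markers (153 CPM, against at most 3.78 CPM in Control and Tangerine livers) and of adipocyte markers (6.74 CPM). Tangerine liver 216 had the highest sum of pancreatic acinar markers (9.05 CPM). Kupffer cell sums ranged from 68.5 to 253 CPM and sinusoidal endothelial sums from 47.7 to 152 CPM; the lowest sum of each was in a Control liver. Lrat, Ms4a1, Alas2 and Cela2a, from the stellate, B cell, erythroid and acinar lists, were at 0 in every liver. All exon bases of each lie inside the annotated span of another gene. As described for Aldh4a1 below, such a 0 cannot be taken as a measurement of expression. A score of circadian phase, taken from 14 clock genes and highest where Dbp is high, averaged 0.794 ± 2.90 (SD, n = 12) in Control livers, -2.57 ± 2.21 in Red livers and 1.78 ± 2.42 in Tangerine livers. In whole liver, fewer cells of a type and less RNA per cell cannot be told apart.

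Aldh4a1 encodes the mitochondrial dehydrogenase that turns the semialdehyde of proline breakdown into glutamate. It had 0 counts in all 36 livers. A floor of 3 counts corresponds to 0.0846 to 0.150 CPM per liver, a limit that covers counting error only. In GENCODE release M21 (mouse genome GRCm38), Aldh4a1 spans 139622866 to 139649690 of chromosome 4 and is read from the plus strand. All of its 4907 exon bases (100%) lie inside the annotated span of Gm21969, a protein-coding gene on the same strand (139603186 to 139662691) that had 538 counts in all livers together. Genes in this position were commonly empty in the table. Of 1464 protein-coding genes with every exon base inside the span of another gene, 1294 (88.4%) had 0 counts in all livers. The share was 19.6% among 14052 genes with no exon base inside another gene. It was 81.1% of 588 genes that lay inside a same-strand gene, as Aldh4a1 does, and 96.4% of 786 that lay only inside an opposite-strand gene. The sources used here do not give the counting program or its strand setting. How overlapping reads were counted was not tested, so the 0 of Aldh4a1 cannot be taken as a measurement of its expression.

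Overlap touched other members in part. Adh1 had 45.1% of its exon bases inside the antisense gene Gm16559, and Aldh1l1 had 34.9% inside other genes. Aldh6a1 had 79.2% inside Bbof1, a protein-coding gene on the opposite strand. The share was 2.54% for Aldh2 and 0 for Adh4, Adh5, Aldh1b1, Aldh8a1 and Aldh9a1. Levels of the overlapped members are therefore uncertain. Differences between diets compare each gene with itself, over whichever of its exon bases were counted. Whether overlap altered those differences was not tested.

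**Figure D1:**
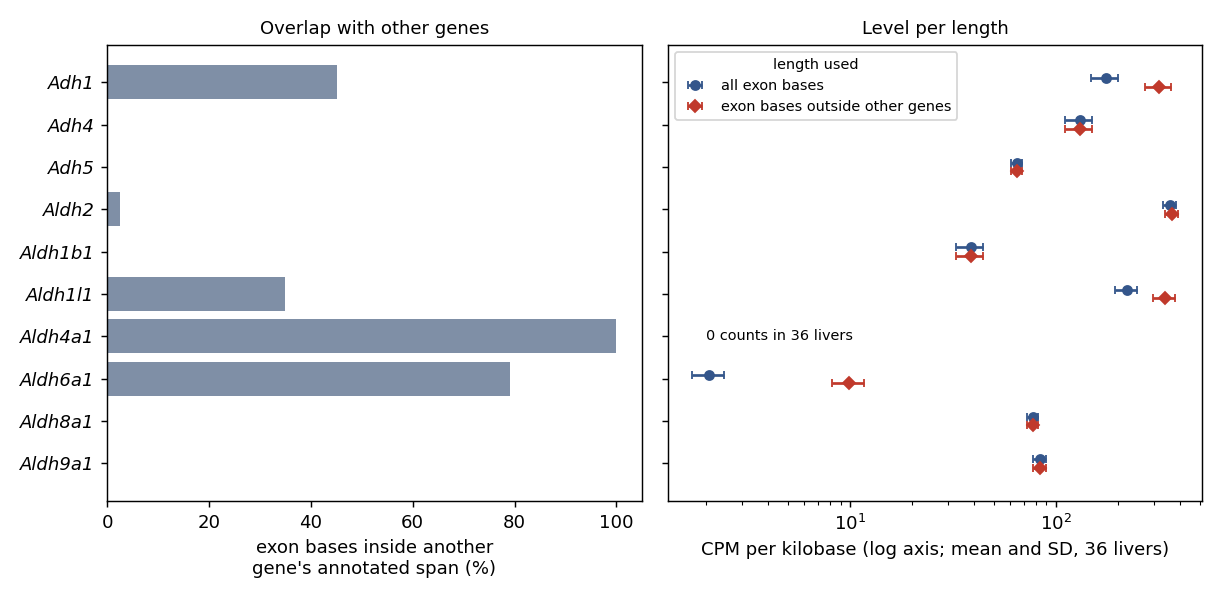
Left, the percentage of each member's exon bases that lies inside the annotated span of another gene. Right, its mean level over 36 livers in CPM per kilobase (log axis, bars are SD), with all exon bases (circles) or only those outside other genes (diamonds) as the length. Aldh4a1, at 100% overlap, had 0 counts, and Aldh6a1 moved from 2.07 to 9.94 CPM per kilobase with the length used.

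Per kilobase of exon, Aldh2, the mitochondrial enzyme that oxidises acetaldehyde, was the most abundant member at 357 ± 26.2 CPM per kilobase (SD, n = 36). Aldh1l1, the cytosolic enzyme that oxidises formyl-folate, followed at 221 ± 26.7, Adh1 at 175 ± 25.5 and Adh4 at 131 ± 20.1 CPM per kilobase. Aldh9a1 (83.6 ± 5.99), Aldh8a1 (77.2 ± 4.74) and Adh5 (64.6 ± 4.29) formed a middle group. Aldh1b1 reached 38.6 ± 5.81 and Aldh6a1 2.07 ± 0.362 CPM per kilobase. The ranges of Aldh2 and Aldh1l1 over livers did not overlap, nor did those of Adh4 and Aldh9a1, of Adh5 and Aldh1b1, or of Aldh1b1 and Aldh6a1. The other neighbours overlapped in range, although within a liver Aldh1l1 was above Adh1 in 33 of 36, Adh1 above Adh4 in 34, Aldh9a1 above Aldh8a1 in 30 and Aldh8a1 above Adh5 in 36. With only the exon bases outside other genes as the length, the order was the same, but Aldh2 (366), Aldh1l1 (339) and Adh1 (318 CPM per kilobase) came close together: Aldh2 was then above Aldh1l1 in 28 livers and Aldh1l1 above Adh1 in 25.

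No member passed an adjusted p of 0.05 in any comparison of diets by edgeR's quasi-likelihood test with Benjamini-Hochberg adjustment over 14068 genes. For Red against Control the count was 0 of 9 members, where 0.149% of all genes passed, and at an unadjusted p under 0.05 it was 2 of 9 where 13.3% of all genes did. For Tangerine against Control it was 0 of 9 (0.0142% of all genes), and unadjusted 1 of 9 (5.47% of all genes). For Tangerine against Red it was 0 of 9 (1.71% of all genes), and unadjusted 3 of 9 (15.1% of all genes). For both tomato diets together against Control it was 0 of 9 (0.00711% of all genes), and unadjusted 1 of 9 (6.77% of all genes). With DESeq2's test the adjusted counts were 0, 0, 1 and 0 in the same order. By that test 167, 7, 421 and 12 of all genes passed, more than by edgeR's test in each comparison. The median size of the members' log2 differences was 0.08, 0.04, 0.08 and 0.03 in these comparisons, beside 0.09, 0.07, 0.09 and 0.06 over all genes tested. The 95% intervals of the 9 members, not adjusted for multiple tests, reached at most 1.30-fold (Red against Control), 1.34-fold (Tangerine against Control), 1.28-fold (Tangerine against Red) and 1.30-fold (both powders against Control), so larger changes lay outside every interval. Red and Tangerine are compared with the same Control livers, and the comparison of the powders uses the same Red and Tangerine livers again, so these counts are not independent of each other.

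**Figure D2:**
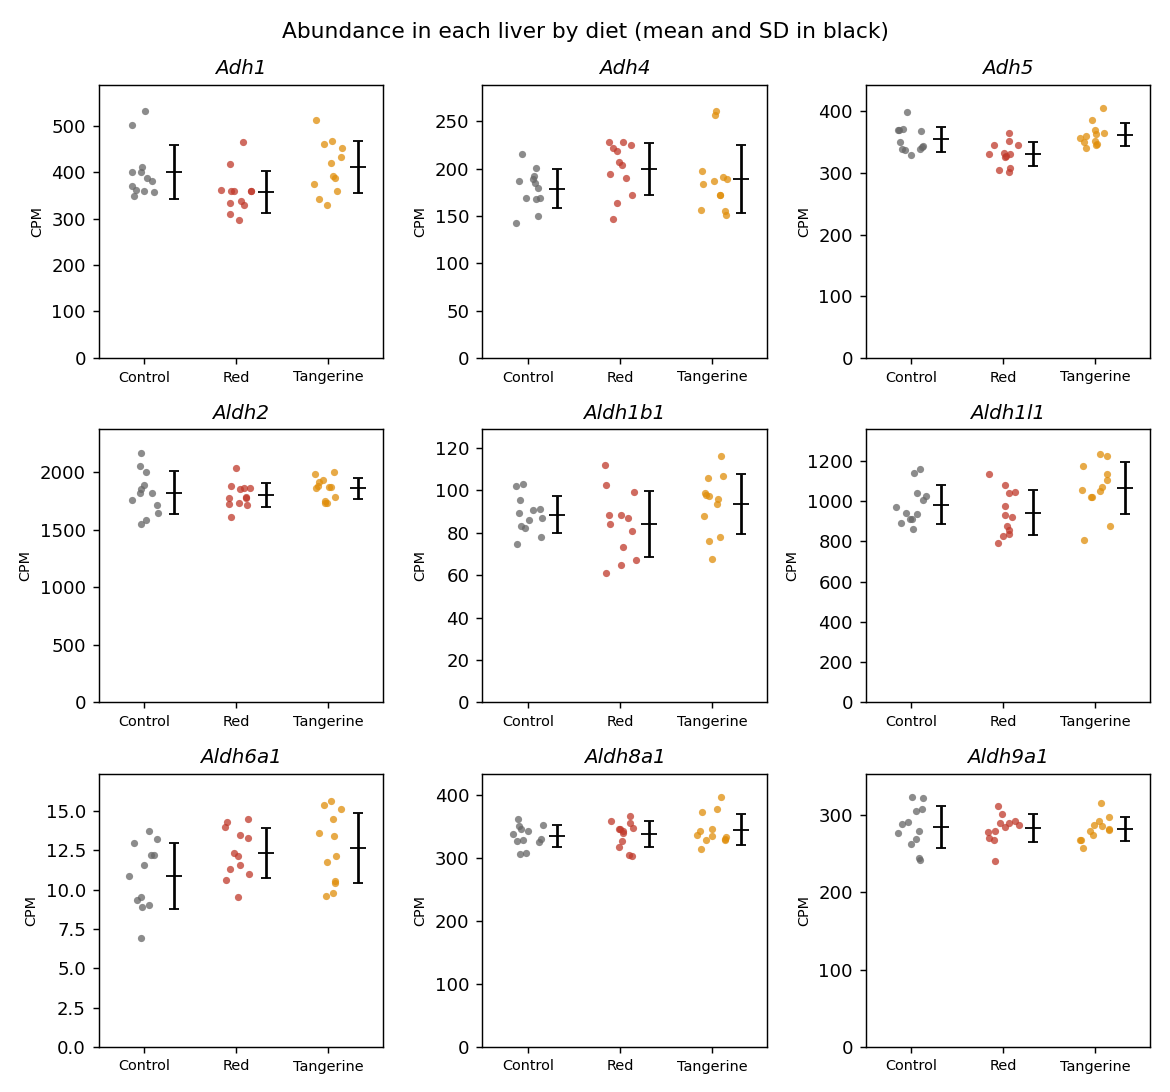
Abundance of the 9 tested members in CPM (vertical axes from 0), 1 point per liver, 12 livers per diet, with the mean and SD of each diet in black. The diets overlap for every gene. Adh5 shows the tightest points, and its Red mean (331 CPM) sits below those of Control (355 CPM) and Tangerine (362 CPM).

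The alcohol dehydrogenases lie in a cluster on the plus strand of chromosome 3 that also holds Adh7, Adh6a, Adh6b and the pseudogene Adh6-ps1. Adh1 (138260991 to 138290698) encodes the class I enzyme, which carries most ethanol oxidation in liver and also accepts retinol. Its lowest, median and highest values were 349.6, 384 and 533 CPM in Control, 297, 359 and 465 CPM in Red, and 330.0, 406 and 512 CPM in Tangerine. Red livers sat somewhat lower, with 5 of 12 below every Control liver, but all 3 diets overlapped. The log2 difference of Red from Control was -0.17 (SE 0.077, edgeR quasi-likelihood adjusted p 0.345), and 2 of 12 Red livers lay above the Control median. Tangerine exceeded Red by 0.20 (log2, SE 0.077, edgeR quasi-likelihood adjusted p 0.187), with 9 of 12 livers above the Red median. Tangerine and Control differed by 0.03. Adh1 also had the steepest slope among the members on the clock score, described further down, and with that score as a covariate the difference of Tangerine from Red was 0.06 (edgeR adjusted p 0.810) and that of Red from Control was -0.06 (edgeR adjusted p 0.821).

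Adh4 (138415466 to 138430892) encodes the class II enzyme, active on retinol and on larger alcohols. It ranged over 143, 182 and 215 CPM (lowest, median, highest) in Control, 147, 205 and 229 CPM in Red, and 151, 185 and 261 CPM in Tangerine. Unlike Adh1 and Adh5 it had its highest mean on Red (199.8 ± 27.3 CPM, SD, n = 12, against 179 ± 20.5 in Control and 189 ± 35.8 in Tangerine), and 5 Red livers lay above every Control liver. The log2 difference of Red from Control was 0.16 with a 95% interval from -0.01 to 0.33 (edgeR quasi-likelihood adjusted p 0.422). For Tangerine against Control it was 0.08, and for Tangerine against Red -0.08 (edgeR adjusted p 0.711). With the clock score as a covariate, Red against Control gave 0.08 (edgeR adjusted p 0.775) and Tangerine against Red turned to 0.02 (edgeR adjusted p 0.958).

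Adh5 (138443093 to 138455499) encodes the class III enzyme, which clears formaldehyde as its glutathione adduct and reduces S-nitrosoglutathione. Control livers held 329.9, 347 and 399 CPM, Red livers 301, 331 and 366 CPM, and Tangerine livers 339.9, 358 and 405 CPM at the lowest, median and highest. Every Tangerine liver (12 of 12) lay above the Red median, and 3 lay above every Red liver, yet the ranges overlapped. The difference of Tangerine from Red was small but had the smallest p among the members: 0.13 on the log2 scale (SE 0.040, 95% interval 0.05 to 0.21), with an unadjusted p of 0.00238 and an edgeR quasi-likelihood adjusted p of 0.0831. DESeq2's test placed it past the threshold at an adjusted p of 0.0154, with the same log2 difference of 0.13. Over all the settings tried, its log2 difference ranged from 0.10 to 0.14. The T cell markers moved in the same comparison (3 of the 3 tested of 5 listed passed the test, all lower on Tangerine), with summed levels of 1.38 to 153 CPM in Red and 1.88 to 3.78 CPM in Tangerine. Without Red liver 186, which gave that upper value, 0 of the 3 passed (lowest edgeR adjusted p 0.703), and the Adh5 difference was 0.12 (edgeR adjusted p 0.125). Red against Control gave -0.10 for Adh5 (SE 0.040, edgeR adjusted p 0.258), with 5 of 12 Red livers below every Control liver, and Tangerine against Control gave 0.03.

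**Figure D3:**
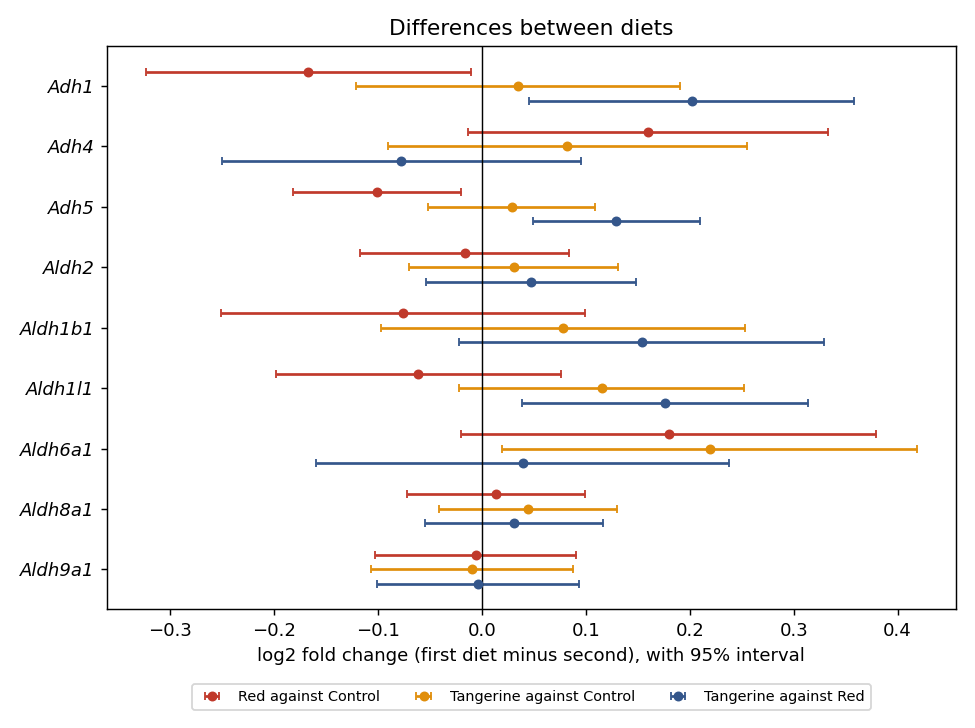
Log2 fold change of each tested member (horizontal axis, first diet minus second) with its 95% interval for Red against Control, Tangerine against Control and Tangerine against Red. The intervals of Adh1 and Adh5 lie below 0 for Red against Control and above 0 for Tangerine against Red, that of Aldh1l1 lies above 0 for Tangerine against Red and that of Aldh6a1 for Tangerine against Control. None of these passed after adjustment over all genes.

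Aldh2 and Aldh1b1 are the mitochondrial enzymes that oxidise acetaldehyde, Aldh2 with the higher affinity. Aldh2 (chromosome 5, 121566027 to 121593824, minus strand) was the most stable of the pair across diets. Its lowest, median and highest values were 1551, 1825 and 2167 CPM in Control, 1613, 1781 and 2041 CPM in Red and 1732, 1875 and 2003 CPM in Tangerine. The Red and Tangerine ranges both lay within the Control range. Its log2 differences were -0.02 (Red against Control), 0.03 (Tangerine against Control) and 0.05 (Tangerine against Red), each with an SE of 0.050.

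Aldh1b1 (chromosome 4, 45799022 to 45804604, plus strand) held 74.5, 88.3 and 103 CPM in Control, 61.2, 85.7 and 112 CPM in Red, and 67.9, 96.7 and 117 CPM in Tangerine. The SD was 15.7 CPM on Red and 14.0 on Tangerine against 8.71 on Control, and 4 Red livers lay below and 1 above every Control liver. The difference of Tangerine from Red was 0.15 (log2, SE 0.087, edgeR quasi-likelihood adjusted p 0.403), that of Red from Control -0.08 and that of Tangerine from Control 0.08.

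Aldh1l1 (chromosome 6, 90486427 to 90600203, plus strand) oxidises formyl-tetrahydrofolate and so returns folate-bound carbon to carbon dioxide. Levels were 861, 957 and 1161 CPM in Control, 792, 925 and 1132 CPM in Red, and 807, 1063 and 1233 CPM in Tangerine (lowest, median, highest). Tangerine livers were on average the highest, with 10 of 12 above the Red median and 10 of 12 above the Control median. The log2 difference of Tangerine from Red was 0.18 (95% interval 0.04 to 0.31, edgeR quasi-likelihood adjusted p 0.191) and that from Control was 0.12 (interval -0.02 to 0.25, edgeR adjusted p 0.954). Red against Control gave -0.06.

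The remaining aldehyde dehydrogenases serve amino acid breakdown and carnitine synthesis. Aldh6a1 (chromosome 12, 84430717 to 84451004, minus strand) is the methylmalonate semialdehyde dehydrogenase of valine and thymine breakdown. It was scarce in the table, with 6.91, 11.2 and 13.7 CPM in Control, 9.51, 12.2 and 14.5 CPM in Red and 9.62, 12.8 and 15.6 CPM in Tangerine. Both tomato groups sat slightly higher, 7 of 24 tomato livers above every Control liver and 17 of 24 above the Control median. The lowest Control value was in liver 137, the library with the fewest total counts, which no setting left out. Both powders together differed from Control by 0.20 (log2, 95% interval 0.03 to 0.37), with an edgeR quasi-likelihood adjusted p of 0.691. Tangerine alone gave 0.22 (edgeR adjusted p 0.837), the largest log2 difference from Control among the members, and Red alone gave 0.18 (edgeR adjusted p 0.436). Most of its exon bases lie opposite Bbof1, as given above.

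Aldh8a1 (chromosome 10, 21377291 to 21396585, plus strand) oxidises aminomuconate semialdehyde in the kynurenine route of tryptophan breakdown. It held 306, 334 and 362 CPM in Control, 303, 343 and 367 CPM in Red and 313, 336 and 396 CPM in Tangerine. The 3 diets were nearly level, with log2 differences of 0.01 between Red and Control, 0.04 between Tangerine and Control and 0.03 between Tangerine and Red (SE 0.042 each). Aldh9a1 (chromosome 1, 167349991 to 167368532, plus strand) oxidises trimethylaminobutyraldehyde, a step of carnitine synthesis. Its values were 241, 283 and 323 CPM in Control, 240.0, 286 and 312 CPM in Red and 257, 281 and 316 CPM in Tangerine. Its group means differed by less than 1 SD: 284 ± 27.1, 283 ± 18.1 and 282 ± 15.5 CPM (SD, n = 12 each). The 95% interval of Red against Control ran from -0.10 to 0.09 on the log2 scale, and that of Tangerine against Control from -0.11 to 0.09.

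Time of day is known to shape liver transcripts, and the mean clock score was lowest on Red, so each member's slope on the score within diets was taken from the same kind of fit. The count of members that passed was 0 of 9, where 6.81% of all genes did, and unadjusted it was 1 of 9 where 20.1% of all genes did. That member was Adh1, with 0.03 log2 per unit of score (95% interval 0.01 to 0.06, edgeR quasi-likelihood adjusted p 0.116). Adh4 had the largest negative slope at -0.02 (SE 0.014, edgeR adjusted p 0.407). The median size of the slope was 0.0073 over the members and 0.016 over all genes tested. Labels give no hour of collection, so phase and diet cannot be told apart beyond this score.

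Members differed widely in how constant they were from liver to liver. The pooled coefficient of variation within diets was 5.57% for Adh5, and only 1.13% of the 7265 genes with a mean of at least 10 CPM had a lower value. Aldh8a1 (6.18%), Aldh9a1 (7.37%) and Aldh2 (7.43%) were also below the lower quartile of those genes (9.71%). Adh5 spanned a 1.34-fold range from the lowest to the highest liver, and Aldh8a1 1.31-fold. Aldh1l1 (11.2%), Adh1 (13.7%), Aldh1b1 (14.8%), Adh4 (15.1%) and Aldh6a1 (16.7%) lay around the median of 12.6%, below the upper quartile of 16.95%. Within the alcohol dehydrogenase cluster, Adh4 and Adh5 are neighbours on the chromosome but had variations of 15.1% and 5.57%. These figures hold counting noise as well as differences between mice, and counting noise weighs most on Aldh6a1, the member with the fewest counts.

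The liver-to-liver variation was shared between some members. Over 36 livers, with each diet's mean subtracted from log2 CPM, 36 pairs were correlated by Pearson's r and Spearman's rho, with permutation p-values (two-sided) adjusted over the pairs. The median r was 0.16, and 27 of 36 pairs were positive. Each point is 1 library, so both genes of a pair share its scaling. Passing at an adjusted p of 0.05 by both measures were 2 pairs, Aldh1b1 with Aldh1l1 and Adh4 with Aldh9a1. How often pairs of other genes would pass in these livers was not tested, so the pairs are not shown to be particular to this family.

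**Figure D4:**
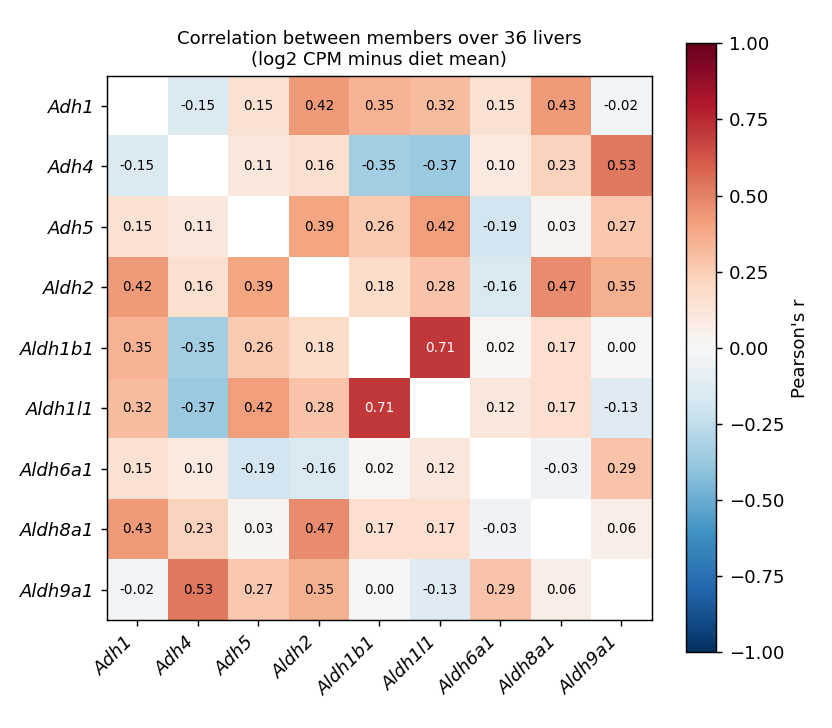
Pearson's r between the 9 tested members over 36 livers, from log2 CPM minus the diet mean (colour scale from -1 to 1, values printed in the cells). Aldh1b1 with Aldh1l1 (0.71) and Adh4 with Aldh9a1 (0.53) are the darkest cells, and Adh4 is negative with Aldh1b1 and Aldh1l1.

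Aldh1b1 and Aldh1l1 had r = 0.71 and rho = 0.68 over 36 livers, with a permutation p of 1e-05 for r, the smallest the resamples can give (adjusted 0.00036), and 2e-05 for rho (adjusted 0.00072). The value was positive in each diet: r was 0.62 in Control, 0.62 in Red and 0.87 in Tangerine. Without the 2 livers farthest from the median, r was 0.64. It was 0.72 without Red 186 and Tangerine 216, and 0.71 with the clock score removed. Adh4 and Aldh9a1 had r = 0.53 (permutation p 0.0012, adjusted 0.0216) and rho = 0.55 (permutation p 0.00073, adjusted 0.0131). Here too every diet gave a positive value, 0.63 in Control, 0.46 in Red and 0.62 in Tangerine, and r was 0.59 without the 2 farthest livers. Aldh2 with Aldh8a1 passed by rank only, with r = 0.47 (permutation p 0.0043, adjusted 0.0516) and rho = 0.49 (permutation p 0.00264, adjusted 0.0317). Adh4 was negatively correlated with Aldh1l1 (r = -0.37) and with Aldh1b1 (r = -0.35), and neither passed. The acetaldehyde enzymes Aldh2 and Aldh1b1 had r = 0.18.

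**Figure D5:**
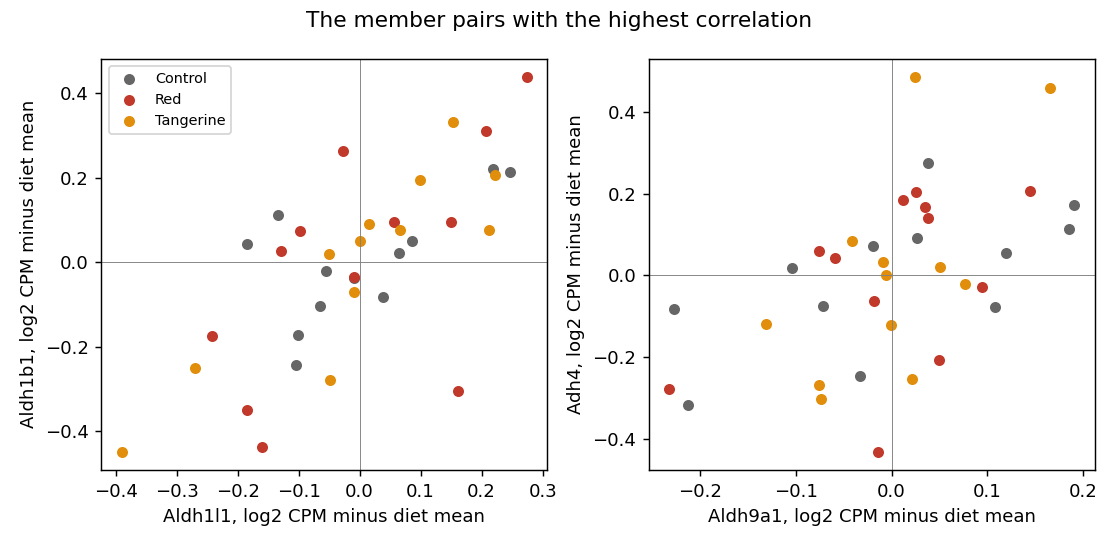
Log2 CPM minus the diet mean, 1 point per liver coloured by diet, for Aldh1b1 against Aldh1l1 (left, r = 0.71) and Adh4 against Aldh9a1 (right, r = 0.53). Points of all 3 diets spread along both trends.

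The start regions of these 4 genes are shown because their transcripts varied together in pairs. The 250 bases before each RefSeq start (GRCm38.p6, plus strand) are at chr4:45798772-45799021 for Aldh1b1, chr6:90550543-90550792 for Aldh1l1, chr3:138415247-138415496 for Adh4 and chr1:167349741-167349990 for Aldh9a1. The Aldh1l1 start is an internal one of the M21 gene, and the last bases of the Adh4 window lie inside its first M21 exon, since M21 starts that gene upstream. Capitals mark matches, on either strand, to the motifs named after the sequences.
Aldh1b1: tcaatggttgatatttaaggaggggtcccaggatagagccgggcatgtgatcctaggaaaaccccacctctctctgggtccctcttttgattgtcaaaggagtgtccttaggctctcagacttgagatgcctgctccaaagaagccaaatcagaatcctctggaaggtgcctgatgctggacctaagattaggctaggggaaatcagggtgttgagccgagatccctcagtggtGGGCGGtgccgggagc
Aldh1l1: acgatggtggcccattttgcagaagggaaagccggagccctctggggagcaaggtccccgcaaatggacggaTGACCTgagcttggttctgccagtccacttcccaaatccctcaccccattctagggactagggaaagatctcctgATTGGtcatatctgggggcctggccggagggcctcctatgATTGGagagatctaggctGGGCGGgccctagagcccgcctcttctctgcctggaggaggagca
Adh4: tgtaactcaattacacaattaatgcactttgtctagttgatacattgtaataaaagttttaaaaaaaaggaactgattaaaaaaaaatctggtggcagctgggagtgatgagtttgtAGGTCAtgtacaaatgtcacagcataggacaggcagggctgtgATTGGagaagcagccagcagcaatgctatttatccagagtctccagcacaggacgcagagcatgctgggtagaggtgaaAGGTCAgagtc
Aldh9a1: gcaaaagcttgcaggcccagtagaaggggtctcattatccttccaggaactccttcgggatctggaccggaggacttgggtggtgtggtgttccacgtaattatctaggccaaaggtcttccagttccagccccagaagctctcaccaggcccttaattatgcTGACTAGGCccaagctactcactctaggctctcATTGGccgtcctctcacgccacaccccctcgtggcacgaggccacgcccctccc

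The motifs searched on both strands were TATAAA (the TATA box), GGGCGG (the GC box), CCAAT (the box of that name) and CACGTG (the E-box bound by clock activators). Also searched were TTATGTAA (the D-box bound by Dbp and its relatives), TGACNNNGC (the core of the antioxidant response element) and AGGTCA (the half-site of many nuclear receptors). The pattern TTGCNNCAA was searched too. It does not match the C/EBP consensus, which was not searched, so its counts say nothing about C/EBP sites. TGACNNNGC and the reverse of AGGTCA begin alike and can overlap. Adh4 held AGGTCA at both -133 to -128 and -11 to -6 from its start, and CCAAT on the minus strand. Aldh1l1 held AGGTCA on the minus strand, GGGCGG once and CCAAT on the minus strand at both -103 to -99 and -63 to -59. Aldh1b1 held only GGGCGG, and Aldh9a1 held TGACNNNGC and CCAAT. Aldh1b1 and Aldh1l1 shared GGGCGG, and Adh4 and Aldh9a1 shared CCAAT. The sharing did not follow the pairs: Aldh1l1 and Adh4, which were negatively correlated (r = -0.37), shared both AGGTCA and CCAAT. These motifs are common: GGGCGG was in 32.7% and CCAAT in 33.8% of all 32851 windows of this length, AGGTCA in 14.0%, TATAAA in 12.4%, TGACNNNGC in 10.2%, CACGTG in 6.02%, TTGCNNCAA in 1.74% and TTATGTAA in 0.819%. RefSeq windows matched 9 of the 10 members, with 11 starts in all. Among the 11, CCAAT was in 6, GGGCGG in 3, AGGTCA in 3 and TATAAA and TGACNNNGC in 1 each, while CACGTG, TTGCNNCAA and TTATGTAA were in 0. The CpG count was 1 for Adh4, 4 for Aldh1b1, 7 for Aldh1l1 and 8 for Aldh9a1, beside a median of 6 over all windows. Adh5 reached 21 at the start next to its M21 gene start and 2 at the other. A match describes letters in the window and not a bound site.

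For each member, the tested gene outside the 10 with the highest Spearman's rho over the 36 livers, again with diet means subtracted, was taken from 14059 genes. These are descriptions with no p, since each was the highest of many. For Adh1 it was Serpina6, the corticosteroid-binding globulin (rho 0.81), for Adh4 Pithd1 (0.78) and for Adh5 Ndufv1, a subunit of respiratory complex I (0.78). Aldh2 was nearest to Acads, the short-chain acyl-CoA dehydrogenase (rho 0.80), Aldh1l1 to Gm5424 (0.74) and Aldh1b1 to Cacna2d3, a calcium channel subunit at only 1.76 CPM (0.63). Aldh6a1 was nearest to Abca6, a transporter of the ABC family (rho 0.86), Aldh8a1 to Fam149a (0.66) and Aldh9a1 to Pctp, the phosphatidylcholine transfer protein (0.78). The highest rho of Aldh1b1 with any of these genes, 0.63, was below its rho of 0.68 with Aldh1l1. The reverse held for Aldh1l1, whose 0.74 was above that 0.68. It also held for Adh4 and Aldh9a1, each at 0.78 with its nearest gene against 0.55 with each other.

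The other alcohol dehydrogenase genes were nearly absent from the table. Of Adh7, Adh6a, Adh6b and Adhfe1, only Adhfe1, the hydroxyacid-oxoacid transhydrogenase, was tested, at 50.9 CPM, and it passed in no diet comparison. Adh6a had 38 and Adh6b 162 counts in all livers together. Adh7, the class IV enzyme, was at 0, and all of its exon bases lie inside an opposite-strand gene. The pseudogene Adh6-ps1 had 32765 counts. Whether reads were shared between genes of this cluster was not tested, and levels of Adh1 and of the Adh6 genes carry that uncertainty.

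Of the 14 other aldehyde dehydrogenase genes, 11 were tested and 0 passed in any comparison of diets, by edgeR's test. Unadjusted p was under 0.05 for 2 of the 11 when Red was set against Control (13.3% of all genes), for 1 when Tangerine was (5.47% of all genes), and for 2 between the powders (15.1% of all genes). The most abundant were Aldh1a1, the retinal dehydrogenase (810.2 ± 224 CPM, SD, n = 36), Aldh7a1 of lysine breakdown (429 ± 29.8) and Aldh3a2, the fatty aldehyde dehydrogenase (178 ± 66.8). Aldh1a1 and Aldh3a2 varied far more from liver to liver than Aldh7a1. The median log2 difference of Tangerine from Red was 0.08 over these 11 and 0.05 over the 9 members, beside -0.0046 over all genes.

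Genes that act beside the members were read from lists by pathway, and 0 of them passed when Control was compared with Red, with Tangerine or with both powders. Of the ethanol and acetate genes, 4 of 5 were tested: Cyp2e1, the microsomal ethanol oxidase (5830 ± 1283 CPM, SD, n = 36), catalase (Cat) and Acss2, which activates acetate, were the most abundant, and 0 of 4 passed in Tangerine against Red. Cyp2e1 rose with the clock score (slope 0.08 log2 per unit, edgeR quasi-likelihood adjusted p 0.00276). Of 11 aldehyde and carbonyl reductases, 9 were tested and 0 passed between diets. All 9 had positive values for Tangerine against Red, with a median of 0.10 where that of all genes was -0.0046. Akr1c6 (0.17) and Akr1c14 (0.28) were the most abundant of them. Akr1b3 was at 0, but all of its exon bases lie inside an opposite-strand gene, so this is not a measurement of its expression. Positive values were also held by 7 of the 9 members, 8 of the 11 other aldehyde dehydrogenases and 2 of the 4 ethanol and acetate genes. All were measured in the same livers, so the signs are not independent.

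Of the genes of formaldehyde and folate metabolism, the setting of Adh5 and Aldh1l1, the most abundant were Ftcd, which feeds formimino groups into the folate pool (458 CPM), and Shmt1, the cytosolic serine hydroxymethyltransferase (279.7 CPM). Neither passed between diets. Their log2 differences of Tangerine from Red were 0.01 for Ftcd (edgeR quasi-likelihood adjusted p 0.972) and 0.11 for Shmt1 (edgeR quasi-likelihood adjusted p 0.342).

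Of the 7 genes of proline and hydroxyproline breakdown, the setting of Aldh4a1, 7 were tested and 1 passed in Tangerine against Red. This was Prodh, the proline dehydrogenase that acts just before Aldh4a1. It held 99.2, 157 and 216 CPM in Control, 104.6, 126 and 159.8 CPM in Red and 150.4, 171 and 249.7 CPM in Tangerine. All 12 Tangerine livers lay above the Red median and 8 lay above every Red liver. Prodh was higher on Tangerine by 0.56 (log2, SE 0.111, edgeR quasi-likelihood adjusted p 0.00909), and its difference of -0.36 on Red from Control did not pass (edgeR adjusted p 0.134). With the clock score as a covariate the difference of Tangerine from Red was 0.41 (edgeR adjusted p 0.239). Glud1, the glutamate dehydrogenase (1078 CPM), had 0.05 for Tangerine against Red.

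Of 18 genes of branched-chain amino acid breakdown, the setting of Aldh6a1, 17 were tested and 1 passed in Tangerine against Red. Acadsb was at 0, but all of its exon bases lie inside an opposite-strand gene, so this is not a measurement of its expression. Bckdhb, a subunit of the branched-chain ketoacid dehydrogenase, had 62.1 to 74.8 CPM in Red and 70.5 to 80.3 CPM in Tangerine, and was higher on Tangerine by 0.15 (log2, SE 0.036, edgeR quasi-likelihood adjusted p 0.0271). It did not pass without Tangerine liver 216 (edgeR adjusted p 0.0597), with the clock score (0.309) or mouse number (0.0943) as a covariate, or with no low-count filter (edgeR adjusted p 0.108). Positive values were seen in 16 of 17, with a median of 0.08 where that of all genes was -0.0046. Hibadh (0.08), which acts just before Aldh6a1, and Mut (0.08), which acts further down the route, did not pass. Of 10 tryptophan and kynurenine genes, the setting of Aldh8a1, 9 were tested and 0 passed between diets. Tdo2, the first enzyme (1365 CPM), had -0.29 for Red against Control (edgeR adjusted p 0.218) and 0.27 for Tangerine against Red (edgeR adjusted p 0.193). Bbox1, which acts after Aldh9a1 in carnitine synthesis, had 0.18 for Tangerine against Red (edgeR adjusted p 0.188), and Tmlhe was not analysed here.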

How the data were processed

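The authors deposited raw read counts per gene, 1 table of 36 libraries, with no normalization. Per the labels' protocols, libraries came from liver RNA with a directional kit. The submitters' processing notes name FastQC, Trimmomatic, edgeR and GRCm38.p6. The aligner, counting program and strand setting are not given in the sources used here. Symbols and positions came from GENCODE M21 for 53620 of 53715 identifiers, and start regions from RefSeq.

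From the counts, filterByExpr of edgeR 4.0.16 kept 14068 genes (minimum count 10). They were scaled by TMM and tested with edgeR's quasi-likelihood F test on all 36 libraries in 1 fit, with Benjamini-Hochberg adjustment over all genes (threshold 0.05). The clock score was the first principal component of 14 clock genes. Correlations used 100000 permutations in scipy 1.17.1. The fit was tested on simulated data. Alternatives were other size factors, no filter, DESeq2 1.42.0, limma-voom 3.58.1, added covariates and leaving out livers. All members were named, with their nearest gene, and from each list the genes that passed and up to 3 of the most abundant; 1 result of the lists is not reported here. The members, lists and livers left out were chosen with earlier results of these data known.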

Additional observations from a re-analysis of the deposited data

How the results depend on the processing

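No paired analysis was possible because no mouse number occurs in more than 1 diet. Over 9 other settings, 0 members passed between diets in 8 of them. The exception was DESeq2's test, where 1 passed in Tangerine against Red (Adh5, log2 difference 0.13). The number of all genes that passed depended strongly on the setting, and the cause was not tested. For Red against Control it was 21, and 167 with DESeq2, 1482 with limma-voom, 4 with the clock score as covariate, 32 to 54 without 1 of the livers Red 186 and Tangerine 216 and 53 without both. For Tangerine against Control it was 2, and 7 with DESeq2 and 1 with the mouse number as covariate. For Tangerine against Red it was 241, and 136 with no low-count filter, 421 with DESeq2, 732 with limma-voom, 0 with the clock score (1710 genes unadjusted), 32 with the mouse number, 89 to 206 without 1 liver (89 without Tangerine 216) and 86 without both. For both powders against Control it was 1, and 6 with no filter, 12 with DESeq2, 34 with limma-voom, 2 without Red 186 and 2 without both livers. For the clock slope it was 958, and 2106 with limma-voom.

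In the main fit, the largest difference that changed sign was that of Adh4 for Tangerine against Red (-0.077), equal to the members' median size there. The log2 differences that changed sign are given with their new values. For Red against Control these were Aldh2 with limma-voom (0.0068) and the clock score (0.0074), and Aldh8a1 with the clock score (-0.0142). For Tangerine against Control they were Adh1 (-0.0078) and Aldh9a1 (0.0045) with the mouse number. For Tangerine against Red they were Adh4 (0.0194) and Aldh6a1 (-0.0486) with the clock score, and Aldh9a1 with no filter (0.0030), limma-voom (0.0041) and the mouse number (0.0084). For both powders they were Aldh9a1 with the mouse number (0.00027) and Aldh1b1 with the mouse number (-0.0142), without Red 186 (-0.0011), without Tangerine 216 (-0.0017) and without both (-0.0040). Slopes that changed sign were that of Aldh1b1 with the mouse number (-0.00074) and that of Aldh9a1 with DESeq2 size factors (-0.00033), no filter (-0.00062), without Red 186 (-0.00016), without Tangerine 216 (-0.00032) and without both (-0.00051). Adh6a and Adh6b had too few counts to be tested, and why Aldh4a1 had 0 counts was not tested.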
